A study of Mus musculus with 2 samples.

Results

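A set of mature miRNAs that mark connective tissue, muscle and vessel wall was followed in CD4+ T cell RNA from the gut lamina propria and from the spleen. They were chosen by accession as miR-143-3p, miR-145a-5p, miR-126a-3p, miR-126a-5p, miR-199a-5p, miR-199a-3p, miR-214-3p, miR-1a-3p and miR-133a-3p, and account for 9 of the 739 rows of the array table. The choice did not use measured values, but results of these data were known when it was made. The lamina propria sample and the spleen sample both came from female C57BL/6 mice aged 10 weeks with the genotype IL-10 +/-, so heterozygosity for this anti-inflammatory cytokine gene is shared by both. Each tissue has 1 array, labelled with the dye Hy5, and the sources used here do not give the number of mice behind each. Every value below therefore has n = 1 and no error, no difference has a replicate check, and no test of the tissue difference was possible. T cells were bound to magnetic beads in both tissues, while collagenase is named for the lamina propria alone, so the effects of tissue and of enzyme treatment cannot be told apart. Fewer cells of a type and less RNA per cell also cannot be told apart in such bulk RNA.

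miRNAs are short RNAs that guide Argonaute proteins to partly matching messenger RNAs, mostly through the seed at bases 2 to 8, and so lower the output of those messages. Several are made almost wholly in one kind of tissue, which makes them useful tracers of the cells in a preparation. miR-143 and miR-145a are processed from one transcript and are abundant in smooth muscle and other mesenchymal cells, in the gut as elsewhere. miR-126 is encoded within Egfl7, a gene of endothelial cells, and is also known in blood progenitors. miR-199a and miR-214 are made in fibroblasts and other mesenchymal cells. miR-1a and miR-133a are characteristic of heart and skeletal muscle.

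The sequences below show which arm of each precursor the array rows stand for. They are RefSeq sequences on build GRCm38.p6, written 5′ to 3′, and cover the 4 of the 9 names that have a mature entry in the table used. The mature forms come first, with the seed in capitals.
miR-126a-3p (chr2:26591402-26591423, plus strand): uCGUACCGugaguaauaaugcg
miR-199a-5p (chr1:162217844-162217866, plus strand): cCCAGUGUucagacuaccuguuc
miR-199a-3p (chr1:162217883-162217904, plus strand): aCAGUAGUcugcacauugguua
miR-214-3p (chr1:162223438-162223459, plus strand): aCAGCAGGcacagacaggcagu
The 4 seeds differ from each other, so none of these miRNAs share a seed group. The seeds of miR-199a-3p and miR-214-3p are the closest pair shown, with 5 of 7 bases identical. Of the 1679 mature names in the table, 0 others carry the seed of miR-126a-3p or that of miR-199a-5p. The seed of miR-214-3p recurs in 1 other name, miR-761, and that of miR-199a-3p in 1 other, miR-199b-3p. miR-199a-3p and miR-199b-3p have the same mature sequence, and the array row for miR-199a-3p carries 2 accessions.

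The precursors of miR-126a and miR-199a are shown because only 1 arm of each had a value. Mir214, the neighbour of Mir199a-2, is shown as well, but its other arm is outside the set and was not looked up. The arm of the set with a value is in capitals.
Mir126a (chr2:26591357-26591429, plus strand): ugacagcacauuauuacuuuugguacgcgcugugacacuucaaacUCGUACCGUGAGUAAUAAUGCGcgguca
Mir199a-2 (chr1:162217814-162217923, plus strand): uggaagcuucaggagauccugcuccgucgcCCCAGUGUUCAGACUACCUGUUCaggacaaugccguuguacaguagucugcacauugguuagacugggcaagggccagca
Mir214 (chr1:162223368-162223477, plus strand): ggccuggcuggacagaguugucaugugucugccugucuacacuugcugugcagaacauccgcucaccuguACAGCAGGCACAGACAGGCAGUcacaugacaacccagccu
In the RefSeq annotation Mir126a lies within Egfl7. Mir199a-2 and Mir214 both lie within the span of Dnm3 and of the non-coding gene Dnm3os, less than 12 kb apart. A further copy of miR-199a comes from Mir199a-1, which lies within Dnm2, and the mature sequence cannot tell the copies apart. Mir143 and Mir145a neighbour each other within the non-coding gene Carmn.

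Of the 9 miRNAs, 5 had a value on both arrays and 4 had a value on neither. As deposited, all 5 with values were brighter in lamina propria, although miR-214-3p changed sign once the lowest listed value of each array was subtracted, and miR-199a-5p and miR-214-3p did so under a scaling that lowers every log2 ratio by 1.05. At least 2-fold brighter were 3 of the 5: the smooth muscle pair miR-143-3p and miR-145a-5p, and the endothelial miR-126a-3p. The mesenchymal miR-199a-5p and miR-214-3p differed by less than 2-fold. Both striated muscle miRNAs were blank. The values are deposited intensities, linear and in arbitrary units, and the blanks are as the authors left them. The set is thus represented by smooth muscle, endothelial and mesenchymal miRNAs, without its striated muscle component.

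miR-143-3p (MIMAT0000247), known for its role in the contractile state of smooth muscle, had an intensity of 59.45 in lamina propria and 10.05 in spleen. This is 5.92-fold higher in lamina propria, a log2 ratio of 2.56. Its partner miR-145a-5p (MIMAT0000157), which promotes smooth muscle differentiation, had 31.25 in lamina propria and 5.59 in spleen. The difference was 5.59-fold, a log2 ratio of 2.48. As deposited, the folds of these neighbours, which come from one transcript, differed from each other by a factor of 1.06. After quantile normalization they lay further apart, with log2 ratios of 3.46 for miR-143-3p and 2.68 for miR-145a-5p. Both spleen values were low but listed, at 7.23 times the lowest value of the spleen array for miR-143-3p and 4.02 times for miR-145a-5p. In lamina propria they stood at 20.6 and 10.9 times the lowest value of that array.

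miR-126a-3p (MIMAT0000138), which sustains vascular growth factor signalling in endothelial cells, had 42.27 in lamina propria and 9.84 in spleen. It was 4.30-fold higher in lamina propria, a log2 ratio of 2.10. These intensities were 14.7 times the lowest listed value in lamina propria and 7.08 times that in spleen. The other arm of the same hairpin, miR-126a-5p (MIMAT0000137), had no value on either array. Endothelial miRNA is therefore represented by 1 row with values.

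miR-199a-5p (MIMAT0000229) had 7.3 in lamina propria and 3.73 in spleen, a 1.96-fold difference and a log2 ratio of 0.97, just short of 2-fold. Its other arm, miR-199a-3p, was blank on both arrays. miR-214-3p (MIMAT0000661), encoded beside Mir199a-2, had 7.11 in lamina propria and 5.79 in spleen, a 1.23-fold difference and a log2 ratio of 0.30. The folds of miR-199a-5p and miR-214-3p differed from each other by a factor of 1.59. The lowest listed value was 2.88 in lamina propria and 1.39 in spleen, a gap of 1.49 units, and the difference for miR-214-3p was 1.32 units. That for miR-199a-5p was 3.57 units. With the lowest listed values set equal, miR-199a-5p had a log2 ratio of -0.08 and miR-214-3p one of -0.75, so both changed sign. That step is a single factor that adds -1.05 to every log2 ratio. It therefore turns the sign of any row whose log2 ratio as deposited lies between 0 and 1.05. The median of all 353 rows became -1.04, below both miRNAs. With the lowest listed value of each array subtracted instead, miR-214-3p had -0.06 and miR-199a-5p 0.92. Subtraction thus turned the sign of miR-214-3p and not that of miR-199a-5p. The differences for miR-143-3p, miR-145a-5p and miR-126a-3p were 49.4, 25.7 and 32.4 units.

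**Figure D1:**
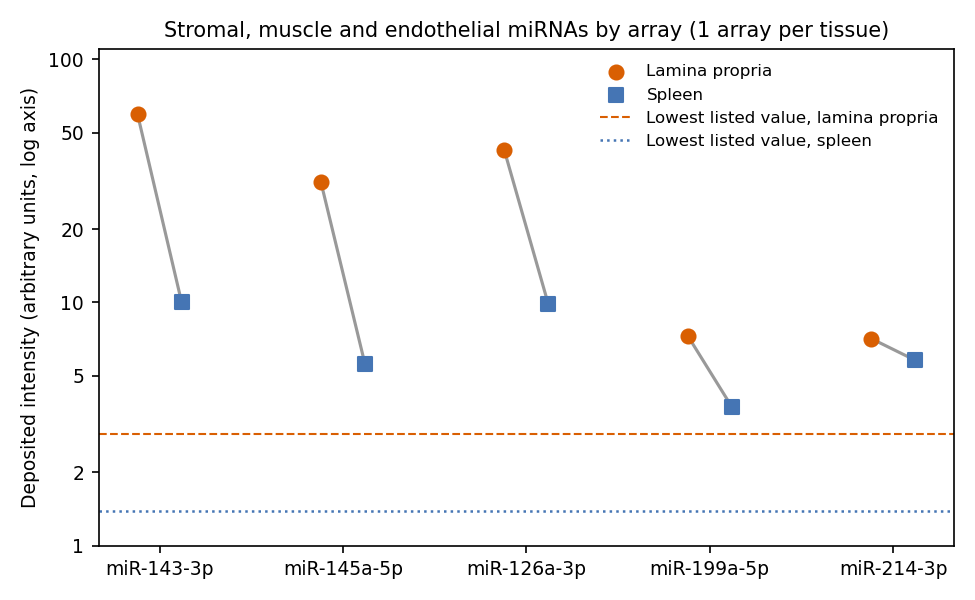
Deposited intensity (arbitrary units, log axis) of the 5 miRNAs that had values, with lamina propria as circles and spleen as squares, 1 array each, and the lowest listed value of each array as a dashed or dotted line. miR-143-3p, miR-145a-5p and miR-126a-3p lie between 31.25 and 59.45 in lamina propria, against 5.59 to 10.05 in spleen. miR-199a-5p and miR-214-3p stay under 8 on both arrays and lie nearer to the lowest value in lamina propria. In spleen miR-214-3p (5.79) lies slightly above miR-145a-5p (5.59).

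miR-1a-3p (MIMAT0000123) and miR-133a-3p (MIMAT0000145), which act in the growth and excitability of heart and skeletal muscle, were blank in lamina propria and in spleen. No level, ratio or bound can be given for them. Of the set, 4 of the 9 miRNAs (44.4%) had no value on either array, and so had 198 of all 739 rows (26.8%) and 34 of the 204 rows with the lowest accession numbers (16.7%). All 9 accessions fall among those 204, a class that was defined with the values known. Accession numbers follow broadly the order in which miRNAs were entered in the miRBase registry.

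The 3 larger differences stood near the top of the rows with a value on both arrays. Of the 739 rows, 378 had a value in lamina propria, 516 in spleen and 353 on both. Rows with a value on only 1 array have no ratio and are outside the shares below. Over the 353 rows, the median log2 ratio was 0.01, with quartiles of -1.06 and 0.72. At least 2-fold higher in lamina propria were 57 rows (16.1%), and 91 (25.8%) were at least 2-fold lower. Against this, 3 of the 5 miRNAs with values were at least 2-fold higher, 0 were at least 2-fold lower, and their median log2 ratio was 2.10 (4.30-fold). By ratio, miR-143-3p ranked 4, miR-145a-5p ranked 5 and miR-126a-3p ranked 7 of the 353 rows. miR-199a-5p ranked 61, and miR-214-3p lay further down. At least 4-fold higher in lamina propria were 8 rows in all (2.27%), and these 3 miRNAs were among them.

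The contrast was wider against the rows with low accession numbers. Of the other 123 such rows with both values, 84 were lower in lamina propria and 39 higher, and their median log2 ratio was -0.81 (1.75-fold lower). Over all 128 of them, the 5 included, 16 (12.5%) were at least 2-fold higher and 59 (46.1%) at least 2-fold lower. Within these 128, miR-143-3p ranked 2, miR-145a-5p ranked 3 and miR-126a-3p ranked 4 by ratio, with miR-199a-5p at 18 and miR-214-3p at 38. All 3 of the higher miRNAs belonged to the brighter 50% of rows by mean log2 intensity (177 rows), where 27 rows (15.3%) were at least 2-fold higher and 73 (41.2%) at least 2-fold lower.

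**Figure D2:**
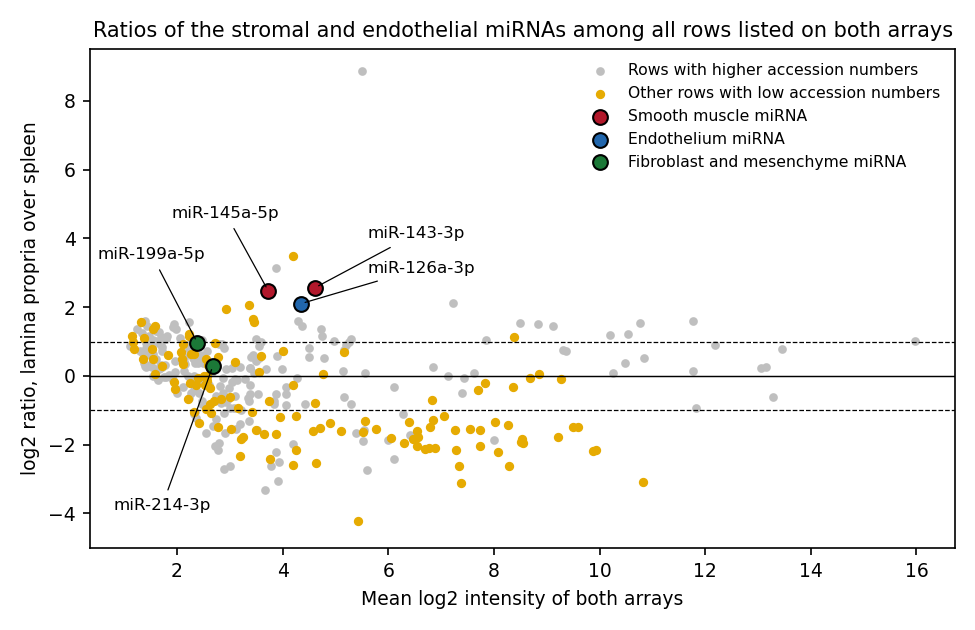
log2 ratio of lamina propria over spleen against mean log2 intensity for the 353 rows listed on both arrays, with the rows of the lowest accession numbers in yellow, the others in grey, and the 5 miRNAs outlined in black. Dashed lines mark 2-fold. miR-143-3p, miR-145a-5p and miR-126a-3p stand near the top, where only 6 rows lie above miR-126a-3p and the smooth muscle pair is among them, while miR-199a-5p and miR-214-3p lie among many other rows at their levels.

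The ratio of a row also varied with its level. In the dimmest of 3 equal groups by mean level the median log2 ratio was 0.50, in the middle group it was -0.36 and in the brightest -0.80. miR-199a-5p falls in the dimmest group, miR-214-3p and miR-145a-5p in the middle one, and miR-143-3p and miR-126a-3p in the brightest. Once this trend was removed with a lowess curve, the log2 ratios were 3.14 for miR-143-3p, 2.93 for miR-145a-5p and 2.57 for miR-126a-3p. These are 8.83-fold, 7.61-fold and 5.92-fold, and the ranks among the 353 rows were 4, 6 and 7. miR-199a-5p had 0.95 and miR-214-3p 0.52 after the same step. The curve was fitted over all 353 rows, the rows with low accession numbers among them.

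The 5 miRNAs made up a small part of the signal in either tissue. Their summed intensity was 147.38 in lamina propria and 35 in spleen, 4.21-fold higher in lamina propria. As a share of all listed intensity this was 0.0808% in lamina propria and 0.0257% in spleen, a 3.14-fold difference in share. The summed intensity of all listed rows was 182481 in lamina propria (378 rows) and 136232 in spleen (516 rows). Setting the total outside the 10 brightest rows equal raised every log2 ratio by 0.37, so that total was lower in lamina propria. The 3.14-fold difference in share therefore depends on the brightest rows. A share of intensity is not a share of cells, because the brightness of a probe depends on its sequence as well as on its target. How far RNA of non-T cells contributes to either sample was not tested. No defining miRNA of T cells, epithelium or myeloid cells could be set beside these values, since the table gives accessions only and the reference tables used pair 0 of them with names.

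The 3 higher miRNAs kept their side of the 2-fold line. miR-143-3p, miR-145a-5p and miR-126a-3p were at least 2-fold higher in lamina propria under each of the 10 other scalings and pseudocounts plotted, with the smallest log2 ratios at 1.51, 1.40 and 1.05. Those for miR-143-3p and miR-126a-3p came with the lowest listed values set equal, a setting that moved the median of all 353 rows by -1.05 and left 8 rows (2.27%) at least 2-fold higher. That for miR-145a-5p came with 10 added to every value. miR-199a-5p passed 2-fold when medians (1.40), 75th percentiles (1.35) or the total outside the 10 brightest rows (1.34) were set equal, and after quantile normalization (1.08). Setting medians equal moved the median of all rows by 0.43 and put 107 rows (30.3%) at least 2-fold higher. With 75th percentiles equal it moved by 0.39, and 101 of the 353 rows were at least 2-fold higher. With the total outside the 10 brightest rows equal it moved by 0.37, and 97 rows were. Quantile normalization moved it by -0.0093, with 56 rows (15.9%) at least 2-fold higher. Taken relative to the median of the low-numbered rows, which moved that median by 0.72, all 5 miRNAs passed 2-fold, as did 145 rows (41.1%).

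**Figure D3:**
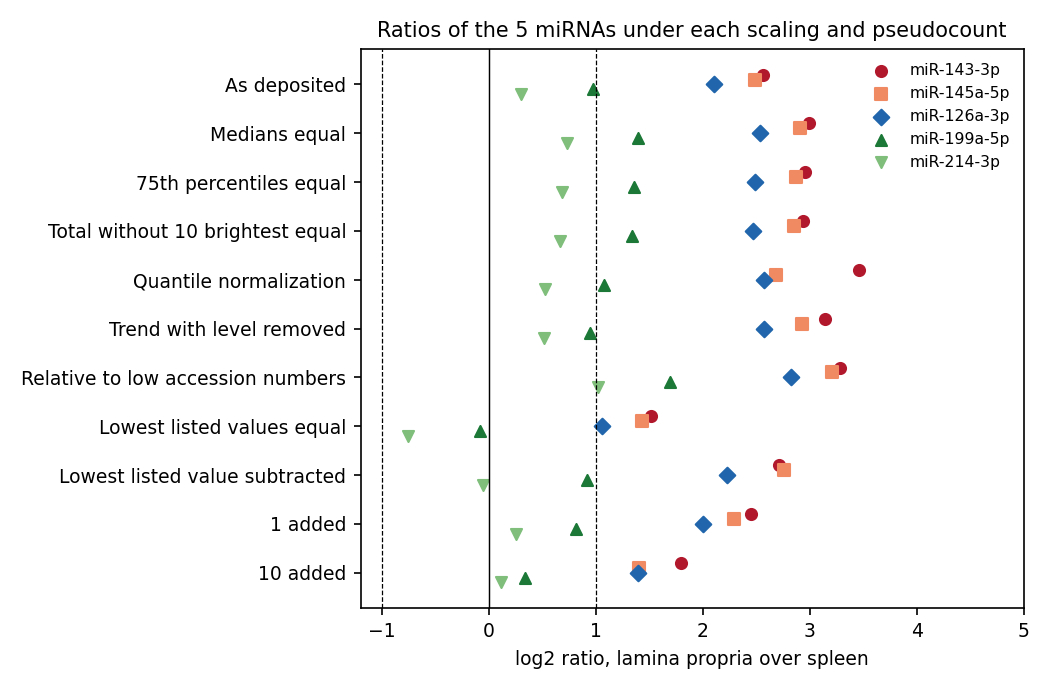
log2 ratio of lamina propria over spleen (horizontal axis) for the 5 miRNAs, 1 array per tissue, as deposited and under 10 other scalings or pseudocounts, 1 per line; the solid line marks no difference and the dashed lines 2-fold. miR-143-3p, miR-145a-5p and miR-126a-3p lie right of the 2-fold line on every line, from 1.05 upward. With the lowest listed values equal, miR-199a-5p and miR-214-3p lie left of 0. With the lowest listed value subtracted, miR-214-3p lies just left of 0 (-0.06).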

How the data were processed

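CD4+ T cell RNA was measured on 1 array for lamina propria and 1 for spleen. The deposited values are linear intensity values, with the authors' background subtraction, detection rule and scaling not given in the sources used here; blanks are the authors' own. Their depth over background is unknown, and the number of arrays limits the precision. Per the labels' protocols, RNA was labelled with Hy5 for an LNA array.

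Each log2 ratio is lamina propria over spleen on the deposited scale, without a pseudocount, and rows at least 2-fold apart were counted over all 353 rows with both values. With 1 array per tissue there was no test. Members, lists and the class of low accession numbers were chosen with earlier results of these data known. All 9 members are named with their values. Planned lists of partner arms, other muscle, mesenchymal, endothelial, epithelial, T cell, and myeloid and erythroid miRNAs, the scaling to miR-142a and the 3 rows most alike in ratio needed names for accessions and were not run (0 accessions paired with names). Sequences were matched by miRNA name. Alternatives were other scalings, a lowess curve (fraction 0.5), pseudocounts of 1 and 10, other folds and a common lowest value. Python 3.11.15, numpy 2.4.6, pandas 2.3.3, statsmodels 0.14.6 and matplotlib 3.10.9 were used. The counting was run on simulated data with planted changes well beyond the 2-fold cut and little noise. That checks the code only and says nothing about the counts in these data.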

Additional observations from a re-analysis of the deposited data

How the results depend on the processing

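The median log2 ratio of the 5 miRNAs, 2.10 as deposited, became 2.53 (medians set equal), 2.49 (75th percentiles set equal), 2.47 (total outside the 10 brightest rows set equal), 2.58 after quantile normalization, 2.57 after removal of the trend with level, 1.997 with 1 added and 1.40 with 10 added. Added after the data were seen, it was 2.82 relative to the low-numbered rows, 1.05 with the lowest listed values set equal and 2.22 with them subtracted. Relative to the low-numbered rows, whose median is then 0, all 5 miRNAs were at least 2-fold higher, as were 145 of all 353 rows (41.1%). Under the other scalings and pseudocounts 3 or 4 of the 5 were at least 2-fold higher. In no setting was any of the 5 at least 2-fold lower. Over all rows with both values, those other settings put 8 to 107 rows at least 2-fold higher and 60 to 179 at least 2-fold lower. At a 4-fold cut 3 of the 5 were higher, among 8 rows in all (2.27%). At a 1.5-fold cut 4 of the 5 were higher, a cut not counted over all rows. The upper quartile of the 353 rows, a log2 ratio of 0.72, also lay above that cut. Leaving out spleen values under 2.88 removed none of the 5. The direction changed for miR-199a-5p (-0.0823) and miR-214-3p (-0.755) with the lowest values set equal, and for miR-214-3p (-0.0568) with them subtracted; the first of these adds 1 constant to every log2 ratio. Settings of a single factor add such a constant, and a pseudocount moves every log2 ratio toward 0. Subtracting the lowest values takes 1.49 units off each difference, and that of miR-214-3p was 1.32 units. Why quantile normalization and the lowess curve moved the values was not tested. No paired analysis was possible because there is a single array for each tissue, and leave-one-out settings do not apply.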
